A study of Mus musculus with 7 samples.

Results

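The genes described here are 35 genes of the unfolded protein response and the heat shock system, chosen by symbol, in a comparison of hypothalamus from wild-type mice and from mice without Creb in Pomc-expressing cells. A gene was represented by the probe set with the highest mean among those the array annotation assigns to that gene alone. By this rule 33 of the 35 were measured, out of 18193 genes in all. All 24 genes of the endoplasmic reticulum (ER) branch were measured, and 9 of the 11 cytosolic and mitochondrial chaperone genes. Hsp90ab1 and Hsf1 were not analysed here.

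Expression was measured on 7 Affymetrix mouse430_2 arrays, with 1 array per sample and whole hypothalamus dissected at 3 months of age. One group was wild type (4 arrays) and the other Creb-PomcCre-/- (3 arrays), called knockout below, in which a Cre recombinase driven by Pomc deletes Creb in arcuate neurons. The comparison asks which hypothalamic transcripts depend on Creb in those appetite-controlling cells. The labels number the samples as biological replicates without saying whether a sample is 1 mouse or several, and they give neither strain nor sex, so the p-values measure only the spread between these samples. Values are log2 expression values deposited by the authors, and every difference is knockout minus wild type on that scale.

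The unfolded protein response is set off when unfolded proteins collect in the ER. It runs through the sensors IRE1 (gene Ern1), PERK (Eif2ak3) and ATF6, and through the transcription factors XBP1 and ATF4, which switch on chaperones, disulfide isomerases and the machinery that moves misfolded proteins out for degradation. The heat shock system is its counterpart in the cytosol, where the factor HSF1 drives inducible chaperones such as the HSP70 genes Hspa1a and Hspa1b. Peptide-producing neurons of the hypothalamus, Pomc neurons among them, fold their large precursor proteins in the ER.

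RefSeq promoter windows (assembly GRCm38.p6, 250 bases before to 50 after a gene's start) were at hand for 28 of the 35 genes. The other 7 were Hsf1, Manf, Hsp90ab1, Hsp90aa1, Hyou1, Atf6 and Hspa8. The ER stress response element (ERSE), searched on both strands, is a CCAAT box followed after any 9 bases by the letters CCACG. It stood in the windows of 8 genes, Hspa5, Hsp90b1, Dnajc3, Calr, Canx, Creld2, Pdia6 and Syvn1, against 39 of 32851 windows overall (0.119%). Alone, CCAAT stood in 37.4% and CCACG in 32.8% of all windows. The sequences below show the element in the gene of the central ER chaperone, in the only member with a pair of copies, in a gene of a secreted ER stress protein, and in a gene of the degradation machinery. They run 5′ to 3′ along the gene's strand, and capitals mark the fixed letters of the element.
Hspa5 (chr2:34772010-34772058, plus strand): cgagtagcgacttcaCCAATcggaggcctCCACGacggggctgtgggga
Hsp90b1, upstream copy (chr10:86705623-86705671, minus strand): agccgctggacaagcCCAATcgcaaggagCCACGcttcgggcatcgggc
Hsp90b1, downstream copy (chr10:86705518-86705566, minus strand): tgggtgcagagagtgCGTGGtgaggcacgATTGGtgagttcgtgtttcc
Creld2 (chr15:88819505-88819553, plus strand): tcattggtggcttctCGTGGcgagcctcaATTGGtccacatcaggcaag
Syvn1 (chr19:6046517-6046565, plus strand): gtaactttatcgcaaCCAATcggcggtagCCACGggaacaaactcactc
In Creld2 and in the downstream copy of Hsp90b1 the element lies on the opposite strand, so its letters read in reverse complement.

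A shorter form, ERSE-II, which has ATTGG, any 1 base and then CCACG, was found in Herpud1 and Dnajb11, against 0.0365% of all windows. The heat shock element, searched on both strands as GAA, TTC and GAA with any 2 bases between each, was found in Hsph1, Hspd1 and Hspe1, against 0.603%. Hspd1 and Hspe1 lie head to head, and the same stretch of chromosome 1 falls into both windows. The sequences are shown for the short ERSE form and for this shared stretch, with the fixed letters in capitals.
Herpud1 (chr8:94386362-94386402, plus strand): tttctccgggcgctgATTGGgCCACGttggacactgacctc
Hspe1 (chr1:55088049-55088091, plus strand): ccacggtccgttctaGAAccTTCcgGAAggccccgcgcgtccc
The cyclic AMP response element to which CREB binds, searched as the letters TGACG followed directly by TCA, matched 0 of the 28 genes against 1.79% of all windows. Its 5-base part TGACG matched 12 of the 28 against 20.8%. The element of the unfolded protein response that XBP1 binds, TGACG followed directly by TGG, also matched 0, against 0.676%. A match is only a run of letters, and a missing match says only that these letters are not in this window.

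**Figure D1:**
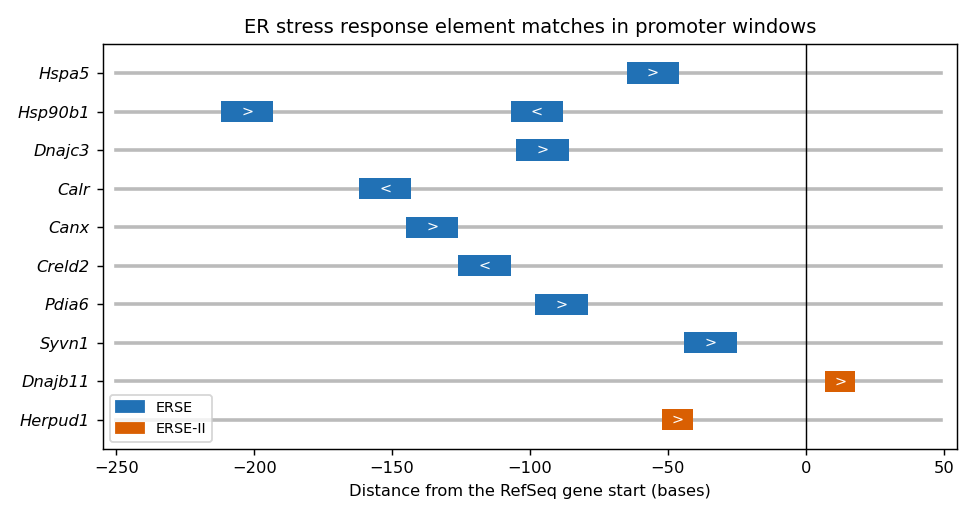
Positions of the ERSE (blue) and ERSE-II (orange) letters in the promoter windows of 10 genes, in bases from the RefSeq gene start, with grey lines for the windows. Arrows point right where the match lies on the gene's own strand and left where it lies on the other. In the 8 ERSE genes the first base of the element lies at -212 to -44, and Dnajb11 is the only one of the 10 with a match after the start.

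Arrays of both groups correlated at 0.994 to 0.997 over probe sets. Wild-type array 2 had the highest summed level of thalamus markers, wild-type array 3 that of meningeal markers, and knockout array 2 that of blood cell markers. Xist, which is made from the inactive X of females, read 12.3 to 12.5 on wild-type arrays 1 and 4 and knockout array 1, and 5.5 to 6.4 on the other 4, so both groups mixed the sexes. The brightest of the 11 measured hypothalamus markers, the peptide genes Hcrt, Pmch, Avp and Oxt, read at least 11.8 on all 7 arrays. The others were dimmer, with Nkx2-1 lowest at 5.50 to 5.80. Pomc read 9.24 to 10.30 and differed by 0.21 ± 0.24 (SE; limma, adjusted p = 0.765). Creb1 itself differed by -0.041 (limma, adjusted p = 0.787), which does not check the labels, since the deletion is aimed at a small part of the cells of this tissue. For the same reason, fewer cells of a type and less RNA per cell cannot be told apart in any value below.

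No gene of the 33 passed the threshold of 0.05 after adjustment over all 18193 genes. The lowest adjusted p was 0.252 (limma, Dnajb9), and over all genes the threshold was passed by 2 (0.011%). An unadjusted limma p under 0.05 was reached by 3 of the 33, the ER genes Dnajb9 and Pdia4, which were higher in the knockout, and the cytosolic chaperone Hspa8, which was lower. Over all genes 11.7% reached it, so the count of 3 is not above the background. The same 3 were the genes whose groups did not overlap, against 12.1% of all genes. The knockout arrays lay above the wild-type arrays in 2 of the 33, against 6.09%, and below in 1, against 6.05%.

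The members leaned to higher readings in the knockout by small amounts. Of the 33, 22 were higher and 11 lower, at a median of 0.036, against 51.5% higher and a median of 0.0036 over all genes. Of the 24 ER genes, 16 read higher and 8 lower in the knockout, at a median of 0.038 and a range of -0.12 to 0.20. Of the 9 chaperone genes outside the ER, 6 read higher and 3 lower, at a median of 0.020 and a range of -0.056 to 0.84. These medians are below the median standard error of a single gene, 0.073, which does not measure the spread of a list median. By array, the median deviation of the ER genes from their means was -0.048 to 0.014 in wild type. In the knockout it was -0.027, 0.093 and 0.0099. For the chaperones outside the ER it was -0.054 to 0.12 in wild type and -0.047, 0.097 and -0.015 in the knockout. Without knockout array 2 the ER median was 0.0029, the chaperone median was -0.015, and 16 of the 33 were higher.

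**Figure D2:**
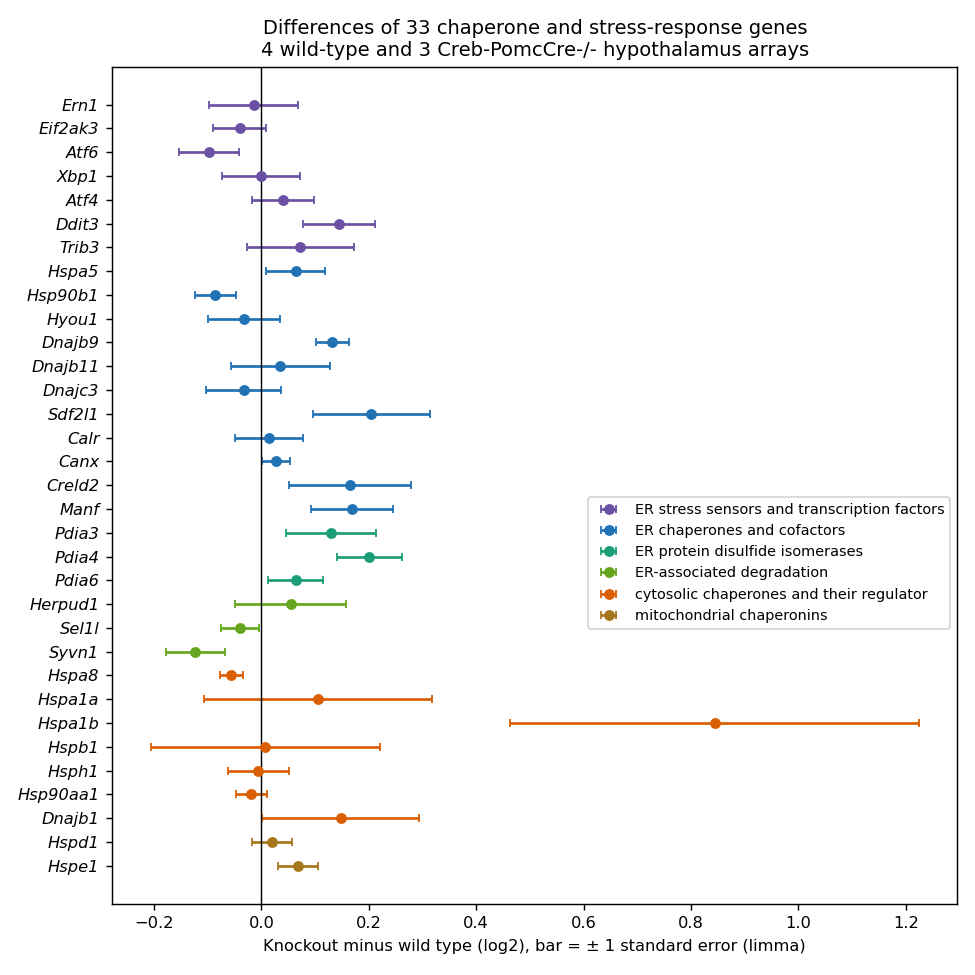
Knockout minus wild-type log2 difference of the 33 measured genes (points) with 1 limma standard error on either side (bars), coloured by role. Most lie within 0.2 of zero, Hspa1b stands at 0.84 with the widest bar, and Dnajb9, Pdia4 and Hspa8 are the 3 whose groups do not overlap.

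The sensors and transcription factors of the response showed no common direction. Of the 7, 4 were higher and 3 lower, at a median of 0.000077, and no gene of the 7 reached an unadjusted p under 0.05 (limma). Xbp1, whose mRNA is spliced by IRE1 to give the active factor, read 11.81, 11.78, 11.76 and 11.87 in wild type. In the knockout it read 11.61, 11.95 and 11.85. The mean difference was 0.000077 ± 0.073 (SE), with knockout array 1 below and knockout array 2 above every wild-type array (limma, adjusted p = 0.9997). The array does not separate spliced from unspliced Xbp1, so the factor's activity was not measured. Atf4, the factor translated when PERK or a related kinase is active, read 10.82, 11.04, 10.88 and 10.88 in wild type and 10.91, 11.03 and 10.90 in the knockout. The groups overlapped fully, and the difference was 0.041 ± 0.057 (SE; limma, adjusted p = 0.810).

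Ddit3 encodes CHOP, the transcription factor associated with prolonged ER stress and cell death. It read 9.34, 9.09, 9.24 and 9.25 in wild type and 9.34, 9.31 and 9.47 in the knockout. Wild-type array 1 reached into the knockout range, and the difference was 0.14 ± 0.068 (SE; limma, adjusted p = 0.449). Its second probe set differed by 0.21. Trib3, a pseudokinase gene induced by CHOP and ATF4, differed by 0.072 ± 0.10 (SE). Its readings were between 5.60 and 6.01, dim on this scale, and RMA gives no call that tells such a level from background.

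Of the 3 sensors, Atf6 had the largest difference. It read 8.48, 8.38, 8.33 and 8.31 in wild type and 8.25, 8.31 and 8.26 in the knockout. The groups met at 8.31, and the difference was -0.098 ± 0.056 (SE; limma, adjusted p = 0.517). Its 3 probe sets did not share a sign, with differences from -0.12 to 0.092. Eif2ak3, the PERK gene, differed by -0.041 ± 0.049 (SE), and its 3 probe sets were all lower, by -0.19 to -0.041. Ern1 read 8.12, 7.89, 8.24 and 8.01 in wild type and 8.08, 8.01 and 8.06 in the knockout. The knockout arrays lay inside the wild-type range, with a difference of -0.014 ± 0.083 (SE; limma, adjusted p = 0.962). Of its 5 probe sets, 1 differed by 0.22 and another by -0.16, each without overlap between groups. Both read below 6 on the log2 scale and missed the threshold over all probe sets (limma, adjusted p = 0.368 and 0.436).

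Dnajb9 was the ER gene with the smallest p. It encodes ERdj4, a co-chaperone of BiP that is a target of the IRE1 and XBP1 branch and that delivers misfolded proteins for degradation. Its values were 11.32, 11.24, 11.26 and 11.28 in wild type and 11.40, 11.42 and 11.40 in the knockout. The groups did not overlap, within a total range of 0.18. The difference was 0.13 ± 0.031 (SE), or 1.10-fold, and did not pass (limma, adjusted p = 0.252). Dnajb9 was also among the steadiest genes, with a spread within groups at the 1.63 percentile of all genes. Leaving out an array kept the difference between 0.12 and 0.15. It has a single probe set, so a second reading of the gene was not at hand.

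Hspa5 encodes BiP, the main HSP70 of the ER lumen, which holds the sensors silent when folding is in balance. It read 12.30, 12.19, 12.29 and 12.34 in wild type and 12.24, 12.47 and 12.32 in the knockout. Knockout array 2 was the highest of the 7 and the other 2 lay inside the wild-type range. The difference was 0.064 ± 0.055 (SE; limma, adjusted p = 0.672), and without knockout array 2 it was 0.00055. All 3 Hspa5 probe sets were higher, by 0.029 to 0.064.

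Hsp90b1 encodes GRP94, the HSP90 of the ER, and its probe sets went opposite ways. The brighter read 12.18, 12.13, 12.03 and 12.11 in wild type and 12.04, 12.05 and 11.99 in the knockout, a difference of -0.085 ± 0.038 (SE; limma, adjusted p = 0.430). The other read 9.87, 9.62, 9.65 and 9.68 in wild type and 9.92, 9.90 and 9.79 in the knockout, a difference of 0.17 ± 0.067 (SE). A single wild-type array, number 3 in the first and number 1 in the second, made the groups overlap. A direction for Hsp90b1 therefore depends on the probe set read. Dnajc3, the gene of a co-chaperone that also restrains PERK, had 5 probe sets with differences from -0.14 to 0.18. The brightest read 9.96, 9.99, 9.96 and 9.96 in wild type and 9.75, 9.98 and 10.07 in the knockout, so that the wild-type arrays were close together and the knockout arrays lay on both sides of them. Its difference was -0.033 ± 0.070 (SE; limma, adjusted p = 0.882). In the probe set at 0.18 the groups did not overlap, with the nearest arrays at 8.959 in wild type and 8.960 in the knockout. It missed the threshold over all probe sets (limma, adjusted p = 0.397).

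The remaining ER chaperones and cofactors differed by -0.032 to 0.20. Sdf2l1, a cofactor of BiP with its partner Dnajb11, differed by 0.20 ± 0.11 (SE), and Dnajb11 by 0.036 ± 0.093 (SE). Manf, a secreted ER stress protein with neurotrophic activity, differed by 0.17 ± 0.077 (SE), and Creld2, another secreted ER stress protein, by 0.17 ± 0.11 (SE). Without knockout array 2 the differences were 0.067 for Sdf2l1, 0.085 for Manf and 0.048 for Creld2. The lectin chaperones calreticulin and calnexin, which fold glycoproteins, differed by 0.014 ± 0.063 (SE; Calr) and 0.027 ± 0.026 (SE; Canx). Hyou1, the gene of the nucleotide exchange factor for BiP, differed by -0.032 ± 0.067 (SE). In the role as a whole 8 of 11 were higher, with a median of 0.036.

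The 3 protein disulfide isomerases, which form and rearrange disulfide bonds, were all higher, with a median of 0.13. Pdia4, the gene of ERp72, read 8.77, 8.66, 8.60 and 8.80 in wild type and 8.87, 8.97 and 8.89 in the knockout. The groups did not overlap, and the gap between the nearest arrays was smaller than the spread within wild type. The difference was 0.20 ± 0.061 (SE), or 1.15-fold (limma, adjusted p = 0.307), and leaving out an array kept it between 0.17 and 0.23. A second Pdia4 probe set differed by 0.069. Pdia3, the gene of ERp57, the isomerase that works with calreticulin and calnexin, read 10.37, 10.68, 10.72 and 10.60 in wild type and 10.72, 10.82 and 10.63 in the knockout. Wild-type array 1 was low there, and the difference was 0.13 ± 0.084 (SE; limma, adjusted p = 0.559), or 0.056 without that array. Pdia6 differed by 0.064 ± 0.051 (SE), and its second probe set by -0.061.

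**Figure D3:**
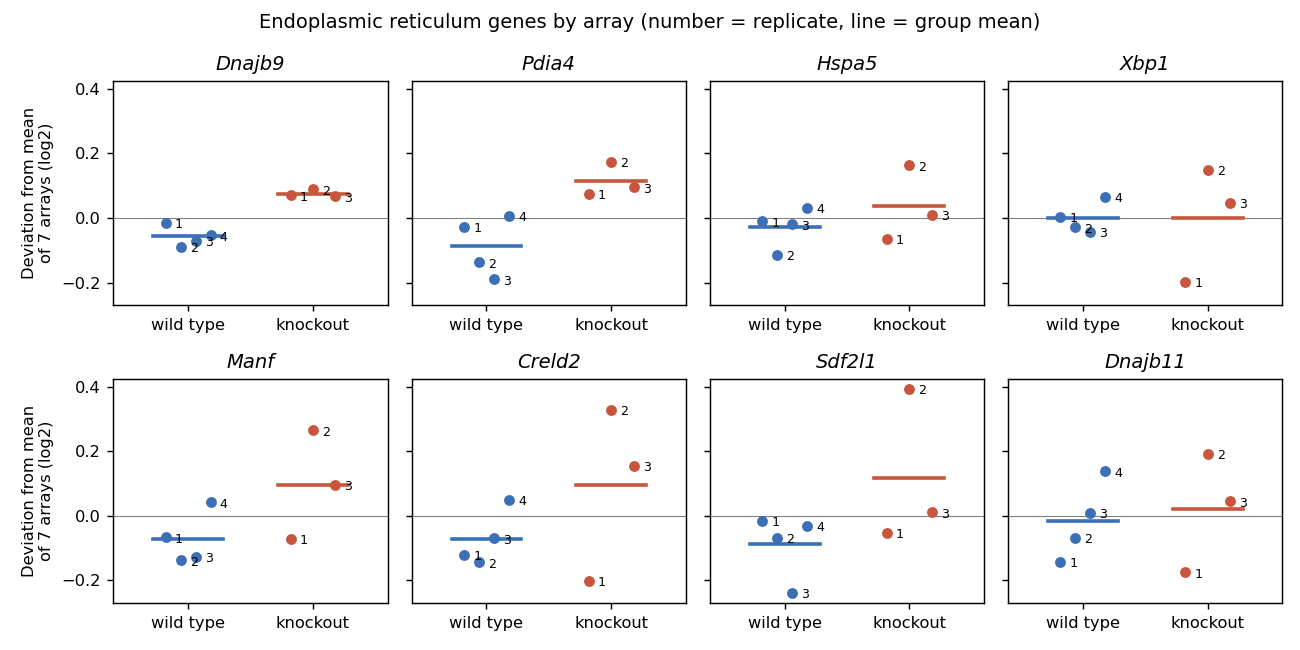
Deviation of 8 ER genes from their mean over 7 arrays (log2), by group; numbers are replicates and lines are group means. The groups separate in Dnajb9 and Pdia4, while in Hspa5, Xbp1, Manf, Creld2, Sdf2l1 and Dnajb11 knockout array 2 is the highest of the 7.

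The degradation genes read slightly lower in 2 of 3 cases. Syvn1, the ubiquitin ligase HRD1 that marks misfolded ER proteins, read 9.54, 9.60, 9.65 and 9.63 in wild type and 9.37, 9.53 and 9.56 in the knockout. Knockout array 3 and wild-type array 1 overlapped by a small margin, and the difference was -0.12 ± 0.055 (SE; limma, adjusted p = 0.432). Sel1l, the adaptor of that ligase, read 10.80, 10.79, 10.81 and 10.82 in wild type and 10.79, 10.80 and 10.70 in the knockout. Knockout array 3 alone lay below the wild-type range, and the difference was -0.041 ± 0.035 (SE; limma, adjusted p = 0.673). Herpud1, which helps assemble the complex, differed by 0.055 ± 0.10 (SE).

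The genes with the ERSE letters and those without could be set side by side, as a description. The 8 ER genes with the element had a median difference of 0.020, with 5 higher and 3 lower, from -0.12 (Syvn1) to 0.17 (Creld2). The 13 ER genes with a window and without the element had a median of 0.055, with 10 higher and 3 lower, and Dnajb9, Pdia4 and the ERSE-II genes Herpud1 and Dnajb11 were among these. Genes that hold the element thus spanned most of the range of the ER members.

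Outside the ER, by the probe sets used, Hspa8 was the steadiest and Hspa1b the most variable of the 9 measured genes. Hspa8 encodes HSC70, the constitutive HSP70 of the cytosol, which also uncoats clathrin vesicles at synapses. It read 13.76, 13.76, 13.79 and 13.79 in wild type and 13.72, 13.71 and 13.73 in the knockout. All knockout arrays lay below all wild-type arrays, within a total range of 0.084. The difference was -0.056 ± 0.021 (SE), or 0.962-fold, and did not pass (limma, adjusted p = 0.375). All 4 Hspa8 probe sets were lower, by -0.29 to -0.038, and the other 3 did not reach an unadjusted p under 0.05 (limma). The spread of Hspa8 within groups was at the 0.209 percentile of all genes, so a small difference separated the arrays. The summed level of 12 neuron markers did not overlap between groups either, at 61254 to 64209 in wild type and 58816 to 60959 in the knockout on the linear scale, with 10 of 12 lower in the knockout; its part in the Hspa8 difference was not tested.

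Hspa1b and Hspa1a are neighbouring, nearly identical genes of the inducible HSP70, and a probe set named for one may also pick up the other. Hspa1b read 8.29, 8.99, 9.29 and 10.01 in wild type and 9.43, 10.56 and 9.97 in the knockout. Wild-type array 4, which has no knockout array of its number, was above 2 of the 3 knockout arrays, and the wild-type arrays alone spanned 1.72. Each knockout array was above wild-type arrays 1 to 3, so this ordering would hold under any matching of their numbers. The difference was 0.84 ± 0.38 (SE), or 1.80-fold, the largest of the 33, and it did not pass (limma, adjusted p = 0.437). It was 0.56 when knockout array 2 or wild-type array 1 was left out, and 1.13 when wild-type array 4 was. In a fit blocked on replicate number, with the 3 numbers present in both groups, it was 1.13 ± 0.16 (SE), which did not pass either (limma, adjusted p = 0.404). By design the block leaves the difference as it was without wild-type array 4, and the numbers do not establish pairs. The 3 Hspa1b probe sets gave 0.84, 0.85 and 0.88. Hspa1a read 8.82, 8.88, 9.04 and 9.48 in wild type and 8.67, 9.54 and 9.27 in the knockout. Knockout array 1 was the lowest and knockout array 2 the highest of the 7, and the difference was 0.11 ± 0.21 (SE; limma, adjusted p = 0.875).

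The other cytosolic genes had mean differences of -0.018 to 0.15, none with an unadjusted p under 0.05 (limma). Hspb1, the small heat shock protein HSP27, differed by 0.0068 ± 0.21 (SE), and Dnajb1, the HSP40 partner of inducible HSP70, by 0.15 ± 0.15 (SE). Hsph1, the HSP110 exchange factor, differed by -0.0059 ± 0.056 (SE), and Hsp90aa1, the inducible HSP90, by -0.018 ± 0.028 (SE); with arrays centred on their upper quartiles both turned positive, at 0.018 and 0.0056. Both mitochondrial chaperonin genes, which share the promoter stretch printed above, were higher. Hspe1, the HSP10 gene, read 11.85, 11.79, 11.88 and 11.88 in wild type and 11.90, 11.98 and 11.88 in the knockout, a difference of 0.068 ± 0.037 (SE; limma, adjusted p = 0.504). Hspd1, the HSP60 gene, read 11.52, 11.57, 11.57 and 11.60 in wild type and 11.54, 11.65 and 11.56 in the knockout, a difference of 0.020 ± 0.037 (SE; limma, adjusted p = 0.862). By these probe sets both pairs of groups overlapped, and knockout array 2 was the highest of the 7 in each. A second Hspe1 probe set differed by 0.094 ± 0.041 (SE), without overlap between groups. It missed the threshold over all probe sets (limma, adjusted p = 0.468).

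**Figure D4:**
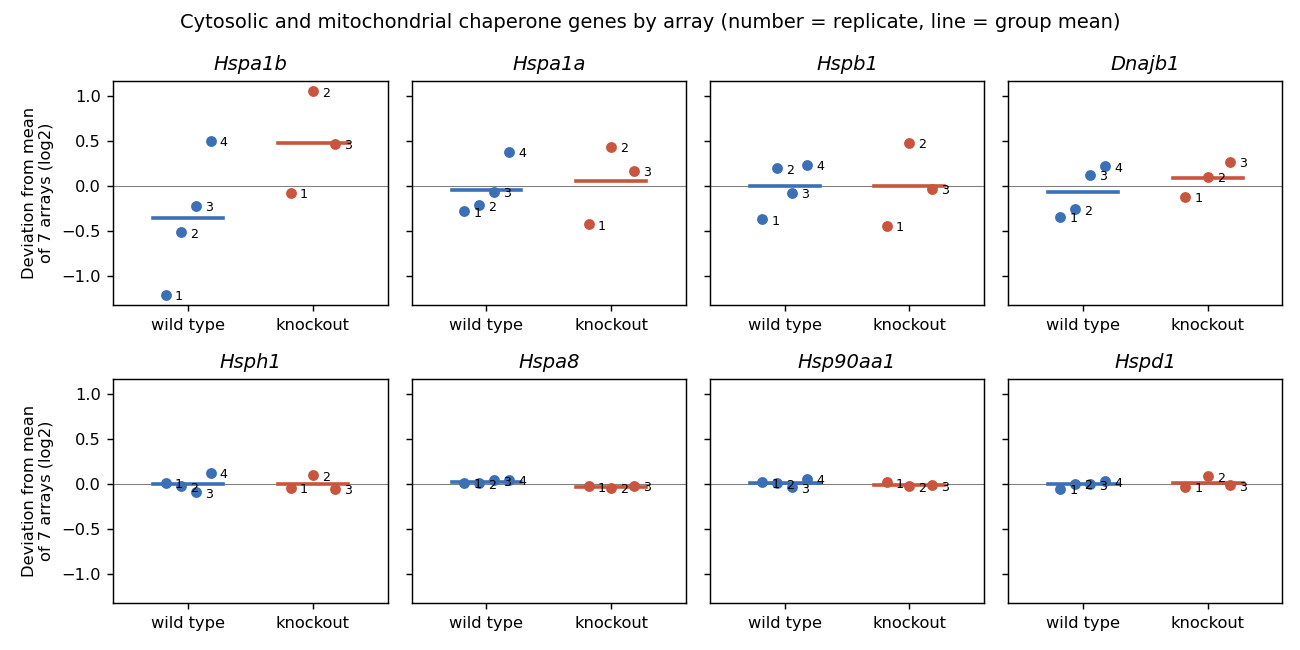
Deviation of 8 cytosolic and mitochondrial chaperone genes from their mean over 7 arrays (log2), by group, on a shared axis; numbers are replicates and lines are group means. Hspa1b, Hspa1a, Hspb1 and Dnajb1 spread widely inside both groups, while Hsph1, Hspa8, Hsp90aa1 and Hspd1 stay close to their means.

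Some cytosolic chaperone genes were among the most variable genes on these arrays. Of the 18193 genes ranked by their spread within groups, the highest 5% held Hspa1b (99.5 percentile), Hspb1 (98.0), Hspa1a (98.0) and Dnajb1 (95.3), which is 4 of the 9 measured chaperones outside the ER. It held 0 of the 24 ER genes. At the steady end, beside Hspa8 and Dnajb9, were Canx (0.434 percentile), Hsp90aa1 (4.27) and Sel1l (5.13). By the probe sets used, the HSP70 genes Hspa8 (constitutive) and Hspa1a and Hspa1b (inducible) stood at opposite ends of this ranking. The place of Hspa8 depends on that choice. Its dimmest probe set had standard deviations of 0.29 in wild type and 0.38 in the knockout, against 0.018 and 0.0093 in the one used.

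Some arrays were often the highest or lowest of their group among the members. The same counts were not made over all genes, so they cannot be called particular to these members. Knockout array 2 was the highest knockout array for 22 of the 33 genes, 16 of the 24 ER genes among them, and the highest of all 7 arrays for 16 of the 33. Knockout array 1 was the lowest knockout array for 18 of the 33. Wild-type array 4 was the highest wild-type array for 17 of the 33 and for 8 of the 9 chaperones outside the ER. The next genes were chosen after their values were seen. Against the mean of the other 2 knockout arrays, knockout array 2 was higher by 0.41 in Sdf2l1, 0.35 in Creld2, 0.26 in Dnajb11, 0.25 in Manf, 0.22 in Xbp1 and 0.19 in Hspa5. In the cytosol it was higher by 0.86 in Hspa1b, 0.72 in Hspb1, 0.57 in Hspa1a and 0.15 in Hsph1, while Dnajb1 was at 0.031, Hspa8 at -0.016 and Hsp90aa1 at -0.026. Not all members followed, since knockout array 2 was the lowest knockout array for 5 of the 33, Hspa8 among them.

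Some markers of blood cells read high on knockout array 2. The summed linear level of the 7 measured blood markers was 840 there, against 271 and 287 on the other knockout arrays and 237 to 281 in wild type. The neutrophil genes S100a8 and S100a9 read 8.21 and 7.45 on it and at most 4.83 on any other array. Alas2, also on the blood list, read 6.85 on it and 5.64 to 6.12 on the other 6. Haemoglobin Hba-a1 read 4.56, within 4.24 to 4.64 on the other 6, a dim level that may be background. Col1a1, on the meningeal list, read 7.78 on knockout array 2 and 5.35 to 5.99 on the other 6. The summed meningeal level there was 2231, inside the wild-type range of 1604 to 4123. All 7 blood markers were higher in the knockout mean, and their part in the readings of the chaperone genes was not tested.

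**Figure D5:**
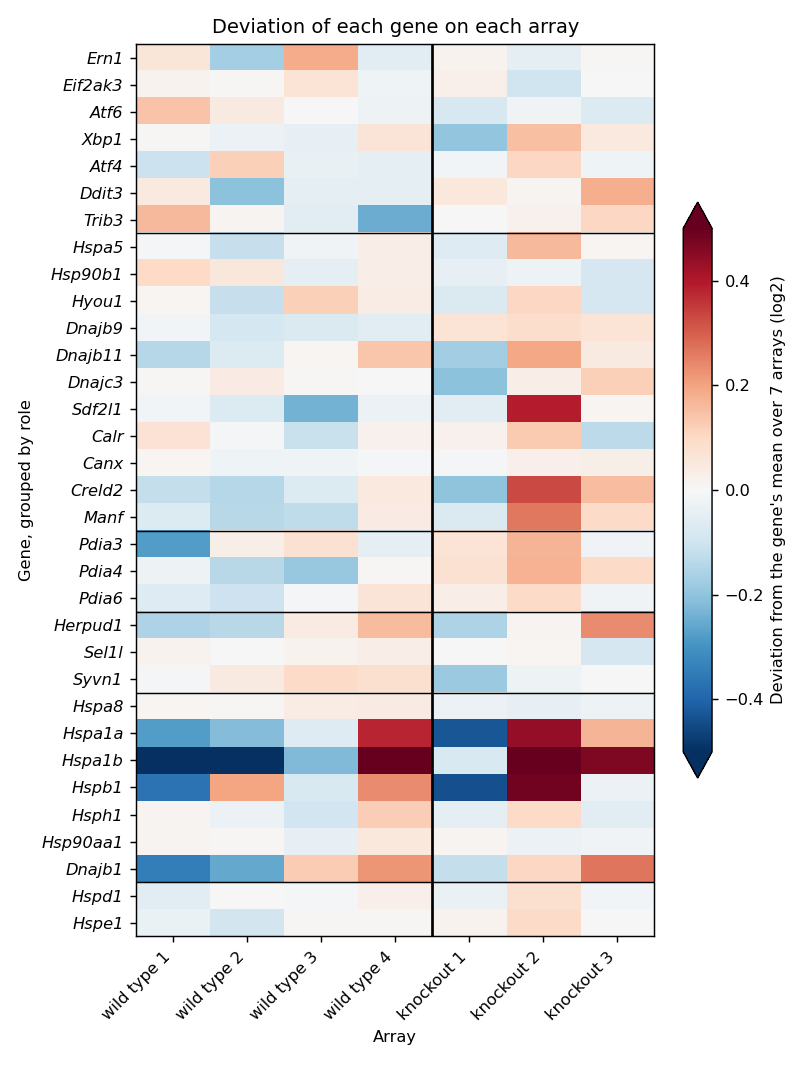
Deviation of each measured gene (rows, grouped by role) from its mean over 7 arrays (columns, wild type left and knockout right of the thick line), on a log2 colour scale capped at 0.5 in either direction. The column of knockout array 2 is mostly red, and the rows of Hspa1a, Hspa1b and Hspb1 carry the strongest colours in both groups.

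Probe sets gave the same picture. The 33 genes had 83 probe sets, of which 0 passed over 45037 (limma), against 3 in all (0.00666%). An unadjusted limma p under 0.05 was reached by 8 of the 83, 6 higher and 2 lower, against 10.6% of all probe sets. Of the 26 genes with several probe sets, 11 had differences of both signs.

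Other genes of the same pathways were read from lists of textbook membership, and 0 of their 100 measured genes passed (limma). An unadjusted limma p under 0.05 was reached by 12 of the 100, against 11.7% of all genes. Of 28 further XBP1 and ATF6 branch genes, 17 were higher and 11 lower, at a median of 0.025. Those with the smallest p were Mbtps1 (-0.14 ± 0.057 SE), the protease that activates ATF6, Ssr3 (0.086 ± 0.037 SE) and Sec61b (0.075 ± 0.045 SE) of the translocation machinery, and Edem1 (0.10 ± 0.053 SE), a lectin of ER degradation. The dimmer Mbtps1 probe sets differed by 0.14 and -0.19, so its probe sets did not share a sign.

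Of 28 further PERK and ATF4 branch genes, 15 were higher and 13 lower, at a median of 0.0075, and these held the largest single differences. Slc7a11, the cystine and glutamate exchanger, read 7.68, 7.86, 7.86 and 7.85 in wild type and 6.60, 6.94 and 7.10 in the knockout. The groups did not overlap, and the difference was -0.93 ± 0.11 (SE; limma, adjusted p = 0.0624). It passed without wild-type array 1 (adjusted p = 0.0435) and without knockout array 1 (0.0394), and the second Slc7a11 probe set differed by only -0.032. Cth, which makes cysteine, was also lower at -0.61 ± 0.16 (SE; limma, adjusted p = 0.267). The serine synthesis genes Phgdh and Psat1, also ATF4 targets, were higher, at 0.25 ± 0.056 and 0.20 ± 0.077 (SE; limma, adjusted p = 0.232 and 0.381), in all 4 Phgdh and both Psat1 probe sets. None of the 4 passed with all arrays, and they were chosen for the smallest p of the 28.

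Of 34 further HSF1 branch and cytosolic chaperone genes, 23 were higher and 11 lower, at a median of 0.021. An unadjusted limma p under 0.05 was reached by 6, all higher. Over all 18193 genes 2131 (11.7%) reached it in either direction, and 1018 of these were higher. The smallest p belonged to subunits of the chaperonin that folds actin and tubulin, Cct7 at 0.16 ± 0.047 (SE), Tcp1 at 0.10 ± 0.032 (SE), Cct3 at 0.10 ± 0.034 (SE) and Cct5 at 0.080 ± 0.032 (SE), and in each of them the groups did not overlap. Their adjusted p lay between 0.284 and 0.395 (limma). Other Cct3 probe sets differed by -0.17 to 0.077 and the second Cct7 probe set by 0.084, none with an unadjusted p under 0.05 (limma). In the whole list 6 of 34 genes did not overlap between groups, against 12.1% of all genes. The other 4 of the 8 subunits, Cct2, Cct4, Cct6a and Cct8, named after their values were seen, overlapped between groups and differed by -0.036 to 0.032. Of 10 further mitochondrial chaperone and protease genes, 4 were higher and 6 lower, at a median of -0.017. Grpel2, an exchange factor for mitochondrial HSP70, differed by 0.12 ± 0.064 (SE), its paralog Grpel1 by 0.071 ± 0.040 (SE), the protease gene Yme1l1 by -0.11 ± 0.061 (SE) and Hspa9, the mitochondrial HSP70, by -0.053 ± 0.034 (SE). None of these 10 reached an unadjusted p under 0.05 (limma). Other probe sets of Grpel2 (-0.063), Yme1l1 (-0.00087 to 0.057) and Hspa9 (-0.072 to 0.23) included the opposite sign.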

How the data were processed

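The log2 expression values deposited by the authors were used. The submitters' processing notes name R 2.10.0, affy and RMA but no settings. RMA gives no detection call and removes overall differences in signal between arrays. Their number, 7, limits the precision. Of 45101 probe sets, 64 controls were dropped, and probe sets with several symbols were given to no gene. Knockout and wild type were compared with limma 3.58.1 in R 4.3.3 (lmFit, eBayes with trend, two-sided, Benjamini-Hochberg over all genes, threshold 0.05), checked on simulated data. The members, lists and tests were chosen with earlier results of these data known, so no list was tested.

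Values per array are given for members whose groups do not overlap, the 2 smallest p per role, the hallmark genes Hspa5, Xbp1, Atf4, Ddit3, Hspa1a and Hspa1b, and members with probe sets of opposite sign of which 1 has an unadjusted p under 0.05; each further pathway list gives its 4 smallest p.

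Deviations from the group means of arrays with the same replicate number in the labels correlated at 0.32, 0.10 and 0.14. Wild-type array 2 correlated more with knockout array 3 (0.13), so these values do not establish pairs. The reported fit held the group only, without pairing, and a fit blocked on replicate number was run as an alternative. Alternatives covered the variance model, array weights, dim genes, normalization, probe set choice, Xist, the replicate block and left-out arrays. Promoter windows are RefSeq's, and figures were drawn with matplotlib 3.10.9.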

Additional observations from a re-analysis of the deposited data

Results flagged for a closer look

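In 45 groups of wild-type values, those of the 33 members and the scores of the marker lists, a single array far from the others was looked for. Of these groups 1 stood out, and the knockout values were not examined in this way. Dnajc3 read 9.99 on wild-type array 2, and the nearest of the other wild-type arrays read 9.96, a gap of 0.885 of the range of that group. The range of that group is only 0.036. Chance marks about 1 in 20 groups in this way.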

How the results depend on the processing

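No member passed the threshold under any alternative that was run, with a lowest adjusted p of 0.165 (limma, Dnajb9 without wild-type array 1). The genes past the threshold, 2 in the reported fit, were 7 with robust eBayes, 7 with array weights, 1 with the mean of probe sets, 4 with Xist as a covariate and 2 to 21 when single arrays were left out. Members without overlap, 3 as reported, were 5 with the probe set of largest interquartile range and 7 without wild-type arrays 2 and 3. They were 4 to 7 when single arrays were left out, and fewer arrays overlap less by construction. The share over all genes was not counted under these settings, so none of these counts can be read as a result about the members. The ER median, 0.038 as reported, was 0.088 with the probe set of largest interquartile range and 0.0029 to 0.080 with single arrays left out, and the chaperone median then ran from -0.015 to 0.079. The other pathway genes past the threshold then numbered 0 to 1. With the replicate block over the arrays numbered 1 to 3, no call changed.

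Of the 33 members, 15 kept their sign under every alternative and 18 reversed under at least one; the cause was not tested. With the probe set of largest interquartile range the reversed values were 0.22 (Ern1), -0.074 (Atf4), 0.17 (Hsp90b1), 0.050 (Hyou1), 0.18 (Dnajc3), -0.046 (Canx), -0.061 (Pdia6), 0.090 (Sel1l) and 0.0011 (Hsp90aa1). With the mean of probe sets they were 0.0063 (Ern1), 0.041 (Hsp90b1) and -0.0049 (Canx). Normalizing again reversed Ern1 (0.0019), and centring on the upper quartile reversed Ern1 (0.010), Hsph1 (0.018) and Hsp90aa1 (0.0056). Array weights gave -0.0046 for Hspb1. Xist as a covariate gave -0.020 for Xbp1, -0.080 for Hspb1 and 0.0043 for Hsph1. Arrays 1 to 3, with or without the replicate block, gave -0.00078 for Trib3 and 0.034 for Hsph1. Without wild-type arrays 2 and 3, Xbp1 was at -0.035 and Calr at -0.039.

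Leaving out single arrays moved Ern1 from -0.072 to 0.046, Xbp1 from -0.074 to 0.098, Atf4 from -0.00035 to 0.085, Trib3 from -0.00078 to 0.14, Hyou1 from -0.093 to 0.0039, Dnajb11 from -0.050 to 0.13, Dnajc3 from -0.10 to 0.061, Calr from -0.048 to 0.082, Herpud1 from -0.047 to 0.15, Hspa1a from -0.084 to 0.35, Hspb1 from -0.23 to 0.23, Hsph1 from -0.055 to 0.034 and Hspd1 from -0.015 to 0.042.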
